A study of Mus musculus with 15 samples.

Results

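The RNA of 7 surface proteins of myeloid cells was measured: Ly6a, Ly6c1, Ly6c2, Ly6e, Ly6g and Ly6i of the Ly6 family, and Cd177. They were taken by gene symbol, and all 7 were found once in each of the 2 tables of read counts, among 34245 genes in the differentiation table and 25965 genes in the IL4 table. The cells came from bone marrow of male C57BL/6 mice aged 8 to 10 weeks and were grown in colony-stimulating factor 1 (CSF1), the growth factor of the macrophage lineage. Precursors were the cells that had not attached after 2 days at 0.6 ng/ml CSF1 in 15% fetal calf serum. Immature macrophages had a further 4 days at 12 ng/ml in 10% serum. Mature macrophages had 1 day at 0.6 ng/ml in 15% serum, 2 days at 12 ng/ml and 7 days at 120 ng/ml, both in 10% serum. In the IL4 table, mature macrophages were kept for another 48 h at 120 ng/ml CSF1, without or with 20 ng/ml interleukin 4 (IL4), a cytokine that drives alternative activation of macrophages. There were 5 groups of 3 libraries, and the titles number the mice 1 to 3 within a group. The labels name no genetic change, and all groups were grown with CSF1.

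Ly6 proteins are small and are built on the three-finger fold that the urokinase receptor also has. Most are held in the outer leaf of the plasma membrane by a glycosylphosphatidylinositol (GPI) anchor. In bone marrow and blood they serve as surface labels of lineage and stage. Ly6a is Sca-1, a marker of mouse stem cells and of activated lymphocytes. Ly6c1 and Ly6c2 together carry the Ly6C antigen by which inflammatory monocytes are sorted, and Ly6g is the antigen by which mouse neutrophils are sorted. Antibodies to Gr-1 bind Ly6G and, less strongly, Ly6C. Ly6e and Ly6a are known as interferon-inducible genes. Cd177 is also GPI-anchored, with uPAR-type domains, and in human neutrophils it holds proteinase 3 at the surface.

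The 6 Ly6 genes lay within 204.1 kb of chromosome 15 (GRCm38, chr15:74955051-75159126). Their order was Ly6e (ENSMUSG00000022587, plus strand, chr15:74955051-74959905), Ly6i (ENSMUSG00000022586, minus strand, chr15:74979534-74983430), Ly6a (ENSMUSG00000075602, minus strand, chr15:74994877-74998031), Ly6c1 (ENSMUSG00000079018, minus strand, chr15:75044018-75048830), Ly6c2 (ENSMUSG00000022584, minus strand, chr15:75108158-75111970) and Ly6g (ENSMUSG00000022582, plus strand, chr15:75155240-75159126). Cd177 (ENSMUSG00000052212) lay on the minus strand of chromosome 7 (chr7:24743983-24760311). None of the 7 overlapped another gene of the GENCODE M21 annotation on either strand.

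Ly6c1 and Ly6c2 are near-identical copies, which bears on every value given for them. Their coding sequences, each of 396 bases, differed at 9 bases, an identity of 97.7%. Of these 9 bases, 6 lay in a stretch of 60 bases near the start of the coding sequence (coding bases 7 to 66, GENCODE M21). It is shown because a read must cross such bases to be assigned to 1 of the genes. Capitals mark the bases that differ.
Ly6c1: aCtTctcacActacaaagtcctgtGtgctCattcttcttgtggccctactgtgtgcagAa
Ly6c2: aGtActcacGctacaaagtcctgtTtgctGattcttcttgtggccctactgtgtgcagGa
Of all runs of 31 bases in the longest coding transcript, 57.1% for Ly6c1 and 52.4% for Ly6c2 were also found in another of the 7 genes. That share was 19.6% for Ly6a, 14.7% for Ly6i, 5.05% for Ly6g and 0 for Ly6e and Cd177. With genes outside the 7 counted too, it was 57.1% for Ly6c1, 53.8% for Ly6c2, 22.1% for Ly6a and 19.7% for Ly6i. For Ly6g it was then 9.55%, for Cd177 7.12% and for Ly6e 0.755%. Ly6a and Ly6i were 86.4% identical over their coding bases, while Ly6e shared 60.3% to 64.9% with the other Ly6 genes. How the authors placed reads that fit several genes is not given in the sources used here, so the split between Ly6c1 and Ly6c2 is uncertain.

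Promoter sequences were matched by symbol in RefSeq (GRCm38.p6) for 4 of the 7 genes, Cd177, Ly6c1, Ly6c2 and Ly6g. The 250 bases before a listed start of each are printed because all 4 genes fell from precursors to immature macrophages. For Ly6g 229 bases are printed, up to the first base that GENCODE assigns to the gene. Capitals mark the core of the PU.1 site, GAGGAA, and the C/EBP form TTNNGCAA, on either strand (TTCCTC is GAGGAA read from the other strand).
Ly6c1, chr15:75048838-75049087, minus strand: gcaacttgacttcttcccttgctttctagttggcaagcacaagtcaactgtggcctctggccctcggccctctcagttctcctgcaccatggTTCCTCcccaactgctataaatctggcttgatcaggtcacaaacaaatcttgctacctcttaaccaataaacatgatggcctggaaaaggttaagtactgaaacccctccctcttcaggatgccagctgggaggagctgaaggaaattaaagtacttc
Ly6c2, chr15:75111972-75112221, minus strand: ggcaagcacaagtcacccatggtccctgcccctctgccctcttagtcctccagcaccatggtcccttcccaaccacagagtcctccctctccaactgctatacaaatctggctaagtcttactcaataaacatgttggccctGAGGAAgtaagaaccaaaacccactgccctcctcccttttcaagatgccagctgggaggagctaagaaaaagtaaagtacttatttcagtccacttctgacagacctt
Ly6g, chr15:75155011-75155239, plus strand: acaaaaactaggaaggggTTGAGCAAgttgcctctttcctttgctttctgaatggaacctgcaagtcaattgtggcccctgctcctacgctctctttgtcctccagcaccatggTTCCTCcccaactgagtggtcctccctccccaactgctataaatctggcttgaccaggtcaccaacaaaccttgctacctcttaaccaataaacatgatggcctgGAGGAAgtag
Cd177, chr7:24760312-24760561, minus strand: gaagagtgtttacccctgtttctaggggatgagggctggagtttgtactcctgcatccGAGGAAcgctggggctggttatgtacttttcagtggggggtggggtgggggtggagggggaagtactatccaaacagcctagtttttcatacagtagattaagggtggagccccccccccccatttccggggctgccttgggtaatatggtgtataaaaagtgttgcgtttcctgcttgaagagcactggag
The PU.1 core was found once in the 250 bases of Ly6c1, Ly6c2 and Cd177 and at 2 places for Ly6g, and it was found in 23.3% of 32817 promoter windows of the same length. The C/EBP form was found once, in Ly6g, against 9.57% of windows. No match was found in these 4 windows to the interferon-response core GAAANNGAA (7.12% of windows), to the GAS form TTCNNNGAA (7.01%) or to the STAT6 form with 4 bases between TTC and GAA (5.85%). The capital runs in a window do not overlap. The windows of Ly6c1 and Ly6g were 83.5% identical over 206 aligned bases. Those of Ly6c2 and Ly6g were 80.3% identical over 173, and those of Ly6c1 and Ly6c2 75.9% over 216. By the same measure the Cd177 window was 59.2% to 61.3% identical to these windows. Ly6c1, Ly6c2 and Ly6g each have another listed start. In the 250 bases before it the PU.1 core was found at 1 place for Ly6c1 and at 2 for Ly6c2 and Ly6g, with no C/EBP form.

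Libraries held 7897769 to 22167294 reads on genes in the differentiation table and 2408531 to 4214266 in the IL4 table. Levels are CPM, the reads on a gene divided by the library total, scaled by the TMM method and set to a common total. The 2 tables were normalized separately, so no test was made across them. Of 14 macrophage markers, 13 were higher in immature macrophages than in precursors, in edgeR's quasi-likelihood fit. By the same test 22.5% of all genes were higher. Adjusted p-values here are Benjamini-Hochberg values over all genes tested in a table, and a gene was called when its value was under 0.05. Csf1r, the receptor of CSF1, rose by 1.67 ± 0.32 (log2, SE; edgeR adjusted p = 0.00151). Of genes with a mean of at least 10 CPM in their group, 113 in mature library 3 were more than 3-fold above both other mature libraries (at most 18 in every other library of either table). In immature library 1, 216 genes were more than 3-fold below both other immature libraries (at most 35 in every other library). In the IL4 table some genes are listed at 0 that these cells use: of 1627 genes with at least 100 CPM in all 3 mature libraries of the differentiation table, 92 were at 0 in all 6 libraries of the IL4 table, among them Rhoa, Rac1 and Hmgb1. A gene at 0 in all 6 is therefore described only as listed at 0.

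In precursors all 7 genes had reads in every library, and their order was set on CPM per kilobase of the longest coding transcript. Ly6c2 was highest at 560 ± 44.6 CPM per kb (SD, n = 3), followed by Ly6e at 407 ± 60.5, Cd177 at 107 ± 23.1, Ly6a at 55.9 ± 22.99, Ly6g at 23.2 ± 2.57, Ly6i at 4.81 ± 3.63 and Ly6c1 at 3.31 ± 0.913. The library ranges of neighbours in this order did not overlap, apart from Ly6i and Ly6c1. When lengths were taken over all exons of a gene, Ly6e came before Ly6c2. Per kilobase, Ly6c2 made up 43.8% to 51.8% of the summed level of the 7 genes in precursor libraries, Ly6e 32.0% to 39.7% and Cd177 7.80% to 12.1%. In immature macrophages the order per kb was Ly6e (93.1 ± 27.5), Ly6a (13.6 ± 2.21), Ly6c2 (9.58 ± 1.73), Cd177 (1.37 ± 0.256) and Ly6i (0.192 ± 0.132), with no overlap between neighbours, and Ly6c1 and Ly6g had 0 reads. In mature macrophages Ly6e (37.9 ± 40.2 CPM per kb) and Ly6a (1.39 ± 0.192) alone had reads. Ly6e then made up 91.0% to 98.1% of the summed level per kb.

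**Figure D1:**
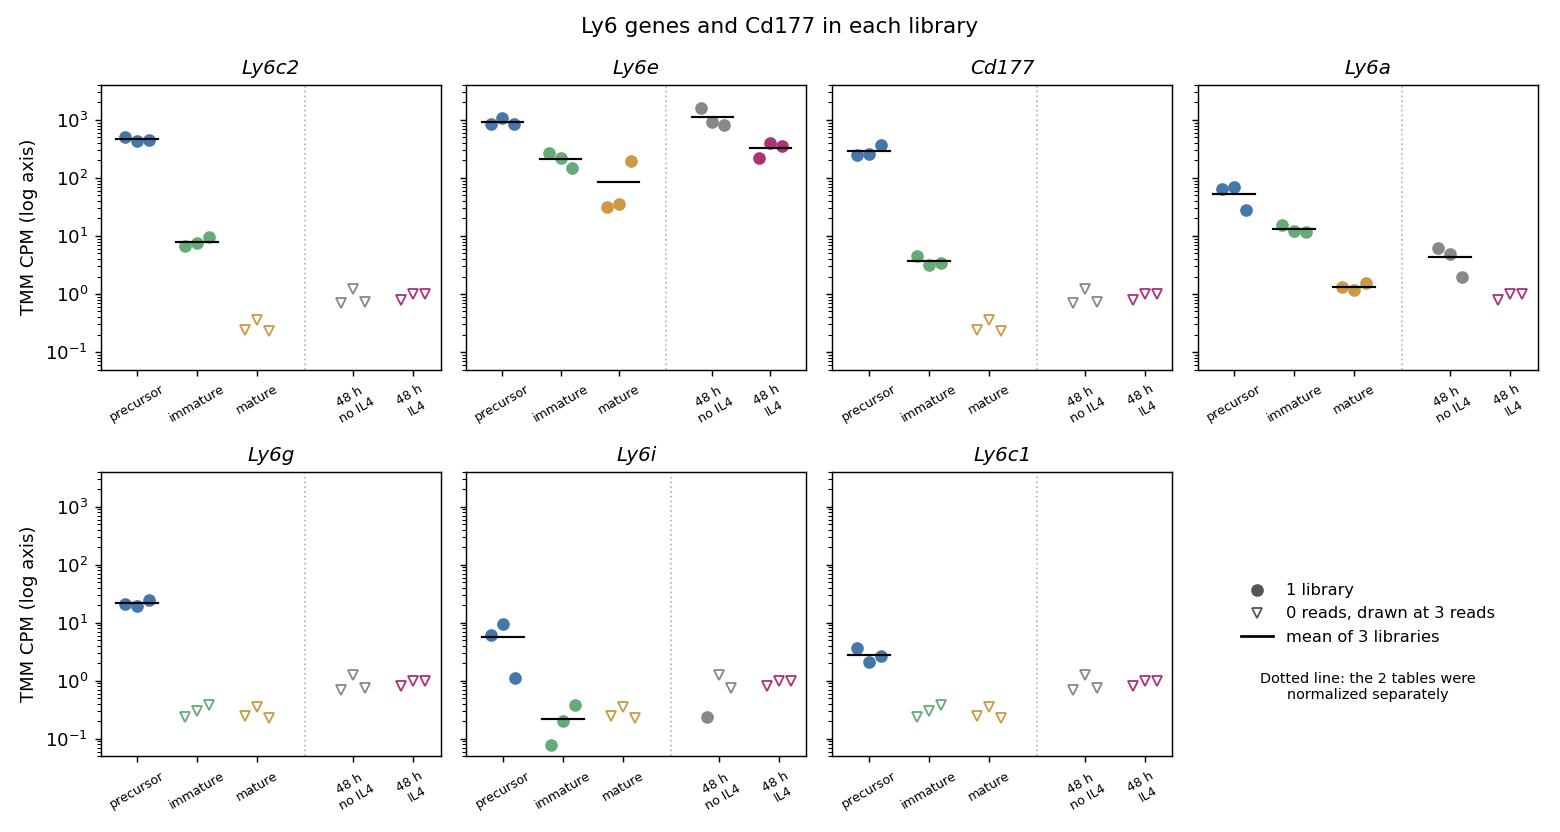
TMM-scaled CPM (log axis) of each gene in each of the 15 libraries, 3 to a group, with the differentiation table left and the IL4 table right of the dotted line; bars are means, and open triangles are libraries with 0 reads, drawn at the level of 3 reads. Ly6e is the one gene with over 25 CPM in all 15 libraries, while Ly6c2, Cd177, Ly6g, Ly6i and Ly6c1 have 0 reads in all mature libraries of the differentiation table.

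All 7 genes fell from precursors to immature macrophages, and none rose. In that comparison 26.6% of the 13359 genes tested were called lower and 22.5% higher. From immature to mature macrophages, 3 of the 5 genes that had any reads in those groups fell, Ly6c2, Cd177 and Ly6a, beside 7.38% of all genes called lower and 7.52% called higher. From precursors to mature macrophages all 7 were lower, beside 28.5% of all genes called lower and 25.8% called higher. The 3 comparisons share groups of libraries. The authors' deposited table lists all 7 in the first and the last comparison and Ly6a, Ly6c2 and Cd177 in the second, with false discovery rates of 2.3e-13, 3.77e-23 and 1.22e-14 for these 3 there. The authors' lists are long, with 7468 genes in the first comparison, 1494 in the second and 7291 in the last. All 7 genes passed the filter on low counts, which Ly6c1, Ly6g and Ly6i did through the precursors alone, where they were high. In bulk RNA, fewer cells of a type and less RNA per cell cannot be told apart.

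The Ly6C genes went from the level of an abundant RNA, for Ly6c2, to no reads. Ly6c2 was at 502, 433 and 445 CPM in precursor libraries 1 to 3 and at 6.70, 7.47 and 9.46 CPM in the immature libraries, and it had 0 reads in the mature libraries. Every precursor library was above every immature one, and the mature libraries lay below both. Ly6c2 fell by 5.87 ± 0.23 (log2, SE) to immature macrophages (edgeR adjusted p = 1.37e-06), a 58.6-fold lower level. Ly6c2 was at least 86.7-fold lower in mature than in immature macrophages, with 3 reads over the mature group as the floor (edgeR adjusted p = 2.17e-05), and this bound was 55.2-fold without mature library 1 and 53.4-fold without mature library 3. Against precursors the mature level was at least 5161-fold lower (edgeR adjusted p = 1.59e-07; 3284-fold and 3176-fold without the same libraries).

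Ly6c1, the other Ly6C gene, was at 3.62, 2.10 and 2.65 CPM in precursors, from 55, 52 and 33 reads. It had 0 reads in all immature and mature libraries, which allows up to 0.0991 CPM over the immature group and 0.0883 CPM over the mature group. Immature macrophages were at least 27.0-fold lower than precursors (edgeR adjusted p = 0.000761; 15.7-fold without immature library 1). Mature macrophages were at least 30.2-fold lower (edgeR adjusted p = 0.000524; 19.2-fold and 18.6-fold without mature library 1 or 3). Of the reads on both Ly6C genes, Ly6c1 had 0.717% (95% Clopper-Pearson interval 0.540 to 0.932) in precursor library 1, 0.482% (0.361 to 0.632) in library 2 and 0.592% (0.407 to 0.830) in library 3. Intervals and floors cover counting error only. In the immature libraries it had 0 of 85, 73 and 74 such reads, which allows shares of up to 3.53%, 4.11% and 4.05%. Pooled over the 3 immature libraries, 0 of 232 such reads allows a share of up to 1.29%, beside a mean of 0.597% in precursors. At the precursor share 1.38 Ly6c1 reads would have been found there. A lower share, or a higher one within this limit, was therefore not detectable at this depth.

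Ly6g and Cd177, both surface proteins of neutrophils, fell from precursors to immature macrophages and had no reads in mature ones. Ly6g was at 21.3, 19.7 and 24.5 CPM in precursors and had 0 reads in every later library. Immature macrophages were at least 215-fold lower (edgeR adjusted p = 2.01e-05; 125-fold without immature library 1), and mature macrophages at least 241-fold lower (edgeR adjusted p = 1.26e-05; 154-fold and 148-fold without mature library 1 or 3). Cd177 was at 250, 259 and 363 CPM in precursors, at 4.49, 3.17 and 3.45 CPM in immature macrophages and at 0 reads in mature ones. It fell by 6.28 ± 0.27 on the log2 scale to immature macrophages (edgeR adjusted p = 1.61e-06). Mature macrophages were at least 43.0-fold below immature ones (edgeR adjusted p = 0.000101; 27.4-fold and 26.5-fold without mature library 1 or 3) and at least 3183-fold below precursors (edgeR adjusted p = 2.52e-07; 2025-fold and 1959-fold).

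Known binding partners of human CD177, and neutrophil elastase listed beside them, did not all follow Cd177. Of these 5 genes, 4 fell from precursors to immature macrophages (Prtn3, Elane, Pecam1 and Itgb2) and 1, Itgam, did not pass the test. Itgb2 lay just under the threshold, at -0.54 ± 0.21 on the log2 scale (SE, edgeR adjusted p = 0.0499). Itgam was at a similar -0.44 ± 0.20 (edgeR adjusted p = 0.0965). Of all genes tested, 26.6% were called lower there. Prtn3, proteinase 3, fell by 6.21 ± 0.25 (log2, SE; edgeR adjusted p = 1.40e-06), from 207 to 2.82 CPM. Pecam1, an adhesion protein of leukocytes and endothelium, fell by 6.73 ± 0.36 (edgeR adjusted p = 3.33e-06), from 50.3 to 0.473 CPM. Both had 0 reads in mature macrophages, as did Elane, neutrophil elastase. Itgb2, the beta chain of the integrin Mac-1, was at 1189 ± 27.2 CPM in precursors and at 2222 ± 464 CPM in mature macrophages (log2 difference 0.90 ± 0.21, edgeR adjusted p = 0.00383). Its alpha chain Itgam was at 1003 ± 195 and 1044 ± 93.1 CPM (0.06 ± 0.20, edgeR adjusted p = 0.827).

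**Figure D2:**
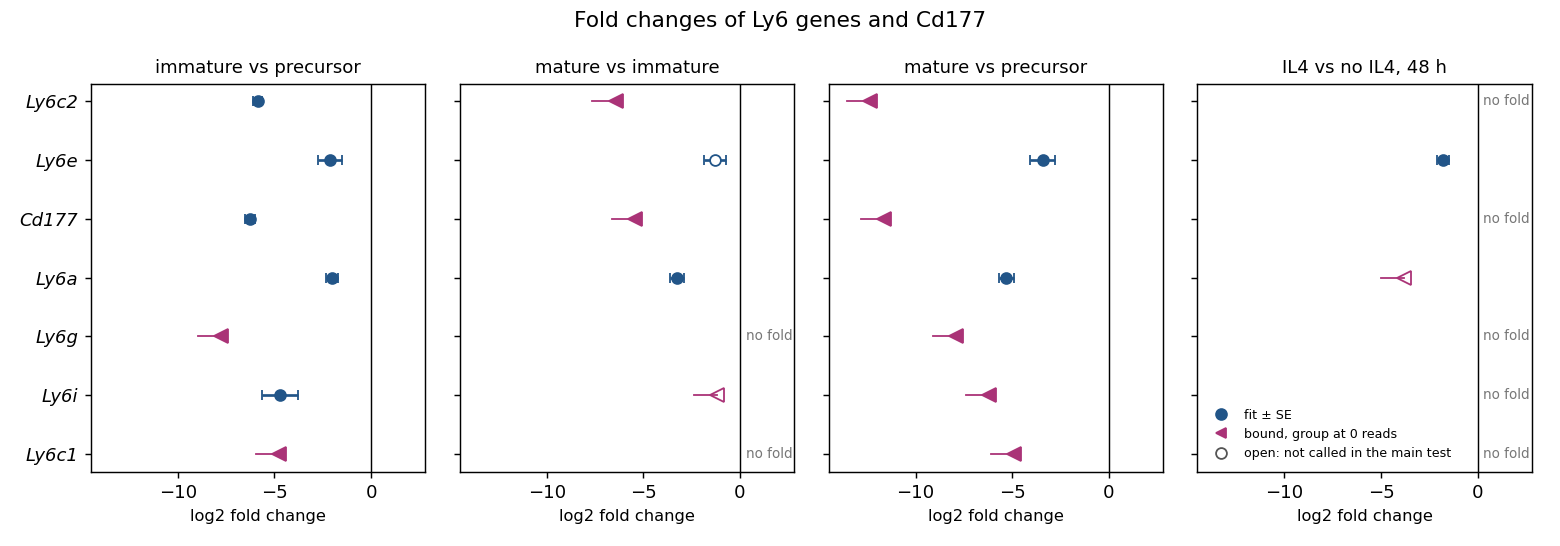
Log2 fold changes of the 7 genes in 4 comparisons; circles are edgeR estimates with SE, triangles are bounds for genes with 0 reads in the later or treated group (3 reads over the group), and open symbols did not pass or did not enter the main test. No gene lies to the right of 0, and in the differentiation comparisons Ly6e has the smallest change from precursors to mature macrophages (-3.42).

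Ly6a and Ly6i, neighbours on the chromosome, both fell from precursors to immature macrophages. Ly6a was at 63.5, 68.4 and 28.2 CPM in precursors, at 15.4, 12.0 and 11.5 CPM in immature and at 1.30, 1.17 and 1.53 CPM in mature macrophages. The 3 groups did not overlap, and precursor library 3 was the lowest of its group. Ly6a fell by 2.04 ± 0.31 (log2, SE) to immature macrophages (edgeR adjusted p = 0.00041), and from there it fell by 3.26 ± 0.37 to mature ones (edgeR adjusted p = 0.000383). Ly6i was at 6.12, 9.45 and 1.12 CPM in precursors, and 1, 2 and 3 reads were found in the immature libraries. It fell by 4.72 ± 0.93 (edgeR adjusted p = 0.00307), and pooled reads gave a 32.8-fold difference with an exact 95% counting interval of 14.9 to 90.1. Without precursor library 2 the log2 difference was -4.08 (edgeR adjusted p = 0.0114), and with limma on the deposited log2 RPM it was -3.48. It had 0 reads in mature macrophages, at least 73.7-fold below precursors (edgeR adjusted p = 0.000699; 46.9-fold, 45.3-fold and 43.8-fold without mature library 1, mature library 3 or precursor library 2). Against the 6 reads of immature macrophages the bound was 2.24-fold, and the test did not pass (edgeR adjusted p = 0.206; 1.43-fold and 1.38-fold without mature library 1 or 3).

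Precursor library 3, where Ly6i and Ly6a were lowest, was also low in interferon response genes. The mean log2(CPM + 1) of 30 such genes, none of them one of the 7, was 5.66, 5.96 and 3.75 in precursor libraries 1 to 3, and Irf7, a transcription factor of this response, was at 132, 190 and 23.04 CPM. Ly6c2 was at 445 CPM there, between the other libraries, and Cd177 at 363 CPM was the highest of its group. Whether this difference between precursor libraries bears on the falls of Ly6a and Ly6i was not tested. Leaving out that library, the lowest of its group for both genes, raises the precursor level and is no added support. The log2 differences were then -5.19 for Ly6i and -2.34 for Ly6a. In every fit that left out 1 library both stayed called lower in immature macrophages (largest edgeR adjusted p 0.0160 for Ly6i and 0.00339 for Ly6a).

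Ly6e, known for its effect on virus entry, had the most reads in every library. It was at 861, 1088 and 838 CPM in precursors and at 272, 219 and 147 CPM in immature macrophages, with no overlap. It fell by 2.13 ± 0.60 (log2, SE; edgeR adjusted p = 0.0135). Without immature library 3, the lowest, the difference was -1.87 and did not pass (edgeR adjusted p = 0.0521). In mature macrophages Ly6e was at 31.2, 35.8 and 192 CPM. Library 3 lay more than 3-fold above both other mature libraries, as it did for 113 of 8713 genes, and within the range of immature macrophages, so the groups overlapped. The difference of -1.29 ± 0.59 (log2, SE) from immature macrophages did not pass (edgeR adjusted p = 0.164). Without mature library 3, the highest of its group, it was -2.66 (edgeR adjusted p = 0.000754). Leaving out that library lowers the mature level and is no added support. The difference was -0.89 without mature library 1 (edgeR adjusted p = 0.338) and -0.93 without mature library 2 (edgeR adjusted p = 0.362). Against precursors, the mature level fell by 3.42 ± 0.63 on the log2 scale (SE, edgeR adjusted p = 0.00106). This difference was -3.01, -3.05 and -4.79 without mature library 1, 2 or 3, and -4.15 with limma on the deposited log2 RPM.

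Interferon response genes are given beside these values, since Ly6e is known to respond to interferon and mature library 3 was high in Ly6e. Irf7 was at 20.1, 28.9 and 61.5 CPM in the mature libraries, and Oas2, an antiviral enzyme, at 11.5, 30.2 and 64.7 CPM. Ifit1, another antiviral gene, was at 15.5, 15.1 and 14.5 CPM, and the mean of the list was 4.57, 4.79 and 4.94. From immature to mature macrophages 6 of the 30 genes fell and 24 were not called, beside 7.38% of all genes called lower. The median log2 difference of the list was -0.84, beside 0.00 over all genes tested. From precursors to immature macrophages 7 rose, 1 fell and 22 did not pass (median 0.35, all genes -0.07). The share that rose was near that of all genes, of which 22.5% were called higher and 26.6% lower. The part of these differences in the values of Ly6e was not tested.

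**Figure D3:**
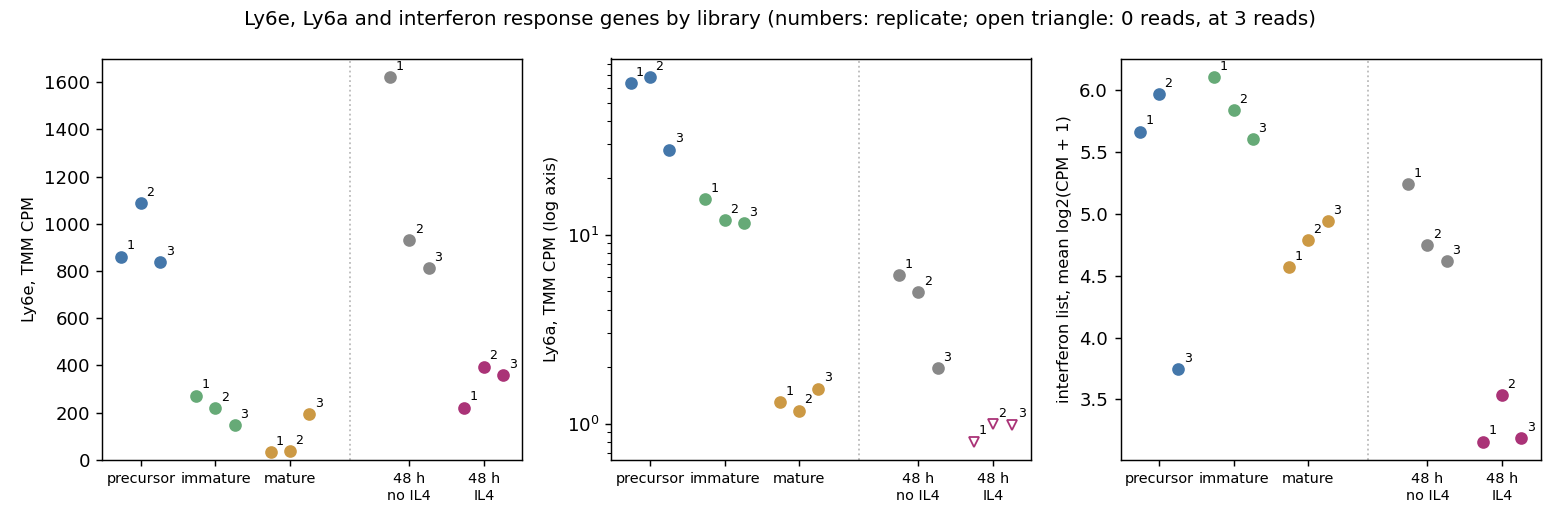
Ly6e (left, CPM), Ly6a (middle, CPM on a log axis) and the mean log2(CPM + 1) of the interferon response list (right) in each library, labelled by replicate number; 30 list genes enter in the differentiation table and 26 with reads in the IL4 table. Precursor library 3 has the lowest list mean of its table (3.75), mature library 3 has the highest Ly6e level of its group (192 CPM), and all IL4 libraries lie below all unstimulated ones in each panel.

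IL4 lowered Ly6e, the most abundant of the 7 in mature macrophages. Ly6e was at 1621, 930 and 812 CPM without IL4 and at 221, 395 and 360 CPM with it, so every treated library was below every untreated one. Ly6e fell by 1.79 ± 0.30 (log2, SE; edgeR adjusted p = 0.00139), a 3.45-fold lower level. In this comparison 10.3% of the 8936 genes tested were called lower and 10.5% higher, 918 and 937 genes. With the replicate number of the titles as a block 1436 and 1447 genes were. Ly6e was the only one of the 7 that passed the filter on low counts. The authors' deposited table lists it at a false discovery rate of 1.11e-07.

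Ly6a moved the same way at a low level. It was at 6.10, 4.95 and 1.97 CPM without IL4, from 26, 12 and 8 reads, and had 0 reads in all 3 libraries with IL4. IL4-treated cells were at least 14.0-fold lower, with 3 reads over the group as the floor, and at least 8.65-fold without IL4 library 1. Ly6a did not enter the main test because of its low counts. Without the filter it was called lower (edgeR adjusted p = 0.000568), where 9.18% of 11378 genes were. DESeq2 also called it (adjusted p = 9.39e-05). It passed a filter at 1 CPM (edgeR adjusted p = 0.00206), and the main filter in 4 of the fits that left out 1 library, only through the unstimulated group, where it was high. Those 4 fits were without unstimulated library 3, its lowest, or without IL4 library 1, 2 or 3 (edgeR adjusted p = 0.000867 to 0.00598), and they are no added support. So 1 or 2 of the 7 genes were called, depending on the filter. The authors' deposited table lists Ly6a at a false discovery rate of 2.1e-08. Ly6i had 1 read in unstimulated library 1 and none in the other 5. Ly6c1, Ly6c2, Ly6g and Cd177 were listed at 0 in all 6 libraries, as in the mature libraries of the differentiation table.

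Interferon response genes fell with IL4 in the same libraries. Of 30, 22 were tested, and 3 were listed at 0 in both groups. Among those tested 19 fell, none rose and 3 were not called, beside 10.3% of all genes called lower and 10.5% higher. Their median log2 fold change was -1.57, beside 0.01 over all genes tested. The summed level of the 29 list genes in the IL4 table, tested or not, was 1555 to 2149 CPM without IL4 and 517 to 610 CPM with it. Rtp4, an interferon-induced chaperone, was at 216 ± 33.7 and 13.7 ± 3.53 CPM (log2 fold change -3.99 ± 0.24, edgeR adjusted p = 2.43e-06). Irf7 changed by -3.09 ± 0.38 (edgeR adjusted p = 0.000187) and Bst2, or tetherin, by -1.12 ± 0.17 (edgeR adjusted p = 0.0007). Among IL4 response genes, 9 of 11 tested rose and 2 fell. Whether Ly6e and Ly6a fell with the interferon genes through a shared cause was not tested.

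Ly6e levels also differed between the tables. Mature macrophages of the differentiation table had 31.2 to 192 CPM, and mature macrophages kept for another 48 h without IL4 had 812 to 1621 CPM. These values come from tables normalized separately, with different gene sets, and table and time cannot be told apart.

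Other genes of the Ly6 and uPAR domain family were mostly without reads. Of 38 such genes, 33 were in the differentiation table, 22 had 0 reads in both precursors and immature macrophages, and 5 were tested. Of these 5, 4 fell and 1 rose from precursors to immature macrophages (median log2 fold change -4.09, all genes -0.07). Of all genes tested, 26.6% were called lower and 22.5% higher there. Ly6d, Lynx1 and Ly6g6f had 1, 9 and 6 reads in immature macrophages. They passed the filter on low counts only through the precursors, where they were high. For these genes only a fall could be called, so the count and median do not describe a trend of the family. Ly6d, a B-lineage marker that lies before Ly6e on chromosome 15, outside the 204.1 kb, was at 22.0 ± 6.60 CPM (SD) in precursors, with 1 read in immature and 0 in mature macrophages (edgeR adjusted p = 6.31e-06 against precursors). Lynx1, a regulator of nicotinic receptors, fell by 5.82 ± 0.49 (log2, SE; edgeR adjusted p = 3.14e-05), from 17.2 to 0.293 CPM. Gpihbp1, a capillary protein that holds lipoprotein lipase, had 0 reads in all 9 libraries.

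Plaur and Cd59a took other courses. Plaur, the urokinase receptor, was at 118 ± 7.33 CPM in precursors, 21.8 ± 3.54 CPM in immature and 120 ± 23.8 CPM in mature macrophages. It fell by 2.44 ± 0.20 (log2, SE; edgeR adjusted p = 7.19e-06) and then rose by 2.46 ± 0.20 (edgeR adjusted p = 4.55e-05). With IL4 it rose by 1.84 ± 0.17 (edgeR adjusted p = 2.87e-05), where Ly6e fell. Cd59a, an inhibitor of complement, rose by 3.28 ± 0.41 from precursors to immature (edgeR adjusted p = 0.00011) and by 1.98 ± 0.35 to mature macrophages (edgeR adjusted p = 0.00403). Genes of GPI anchor synthesis had a median near that of all genes. Of 27 tested, 6 rose, 3 fell and 18 did not pass from precursors to immature macrophages (median -0.07, as over all genes). From precursors to mature macrophages 6 rose, 7 fell and 14 did not pass (median -0.05, as over all genes), and the shares of all genes called in each comparison are those given above. Of the list, 26 of 27 did not pass from immature to mature ones, where Pgap1, a remodelling enzyme of the anchor that had risen by 2.24 ± 0.31, was the one that fell (by 1.73 ± 0.30; edgeR adjusted p = 0.00407). With IL4, 2 of 21 fell and none rose. Pigs, a subunit of the enzyme that attaches the anchor, was 1 of those that fell (by 0.62 ± 0.16; edgeR adjusted p = 0.0168).

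**Figure D4:**
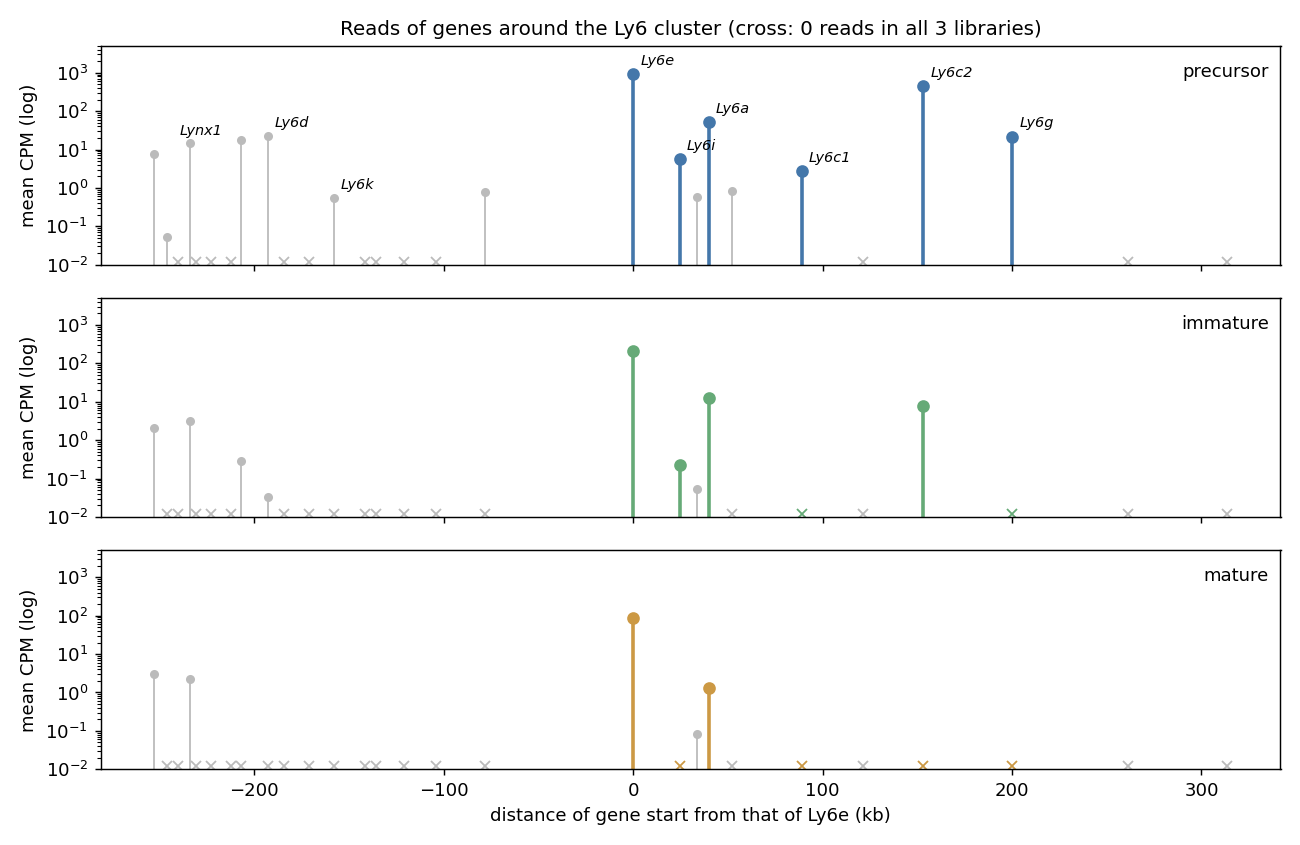
Mean CPM (log axis) of genes around the Ly6 cluster on chromosome 15 by the distance of their start from that of Ly6e in kb, for precursors, immature and mature macrophages (3 libraries each); the 6 Ly6 genes are coloured, other genes grey, and crosses are genes with 0 reads in the group. The 6 coloured genes all have reads in precursors, 4 in immature and 2 (Ly6e and Ly6a) in mature macrophages, and Ly6d in grey goes from 22.0 CPM to 0.

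Across the 9 differentiation libraries, the patterns of the 7 genes were compared with 9467 genes of at least 10 CPM in some group, by Pearson's r of log2 CPM. All are descriptions over the same 9 libraries, which share depth and group. Nearest to Ly6c2 were Fcnb (r = 1.00), Mpo (0.998) and Elane (0.998), and nearest to Cd177 were Plac8 (0.999), Rab44 (0.999) and Ctsg (0.998). Nearest to Ly6g were Dtx1, Mctp2 and Zfp831 (each 1.00), and to Ly6c1 the globin genes Hbb-bt and Hbb-bs (each 1.00) and AC160051.2 (0.999). These genes, like Ly6g and Ly6c1, had 0 reads outside precursors, and 75 genes reached 0.99 with Ly6g and 53 with Ly6c1. Nearest to Ly6a were Chil3 (0.984), BC147527 (0.984) and Cd74 (0.983). Ly6e was followed most closely by Zyx (0.993), Baz2a (0.992) and Taf4 (0.989), and Ly6i by Ddx51 (0.980). Among the 7, Ly6c1 and Ly6g (0.996) and Ly6c2 and Cd177 (0.995) were most alike. With Spearman's rho in place of r, 2 of the 3 nearest genes were shared for Ly6c1 and Ly6g and none for the other 5.

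Markers of several other cell types fell with these genes, and others did not as a sum. The counts below stand beside 26.6% of all genes called lower and 22.5% called higher from precursors to immature macrophages. Summed levels are over all genes of a list, tested or not. All 19 neutrophil markers fell from precursors to immature macrophages, with a summed level of 15980 to 23630 CPM in precursors, 282 to 376 CPM in immature and 20.2 to 31.8 CPM in mature macrophages, where 12 of the 19 had 0 reads, among them S100a9, at 6756 CPM in precursors. Of 15 monocyte markers 12 fell, 1 rose and 2 did not pass (3828 to 4428 CPM against 727 to 1025 CPM), and of 12 tested stem and progenitor markers 11 fell and 1 rose (366 to 476 CPM against 17.6 to 20.0 CPM). All 11 tested B cell markers fell, from 379 to 560 CPM to 3.83 to 11.9 CPM, with 6 of 12 at 0 in immature macrophages. Of 8 tested T and NK cell markers 6 fell and 2 rose. The summed level of the whole list was 50.6 to 63.7 CPM in precursors and 56.4 to 106 CPM in immature macrophages. Of 10 tested plasmacytoid dendritic cell markers 5 fell, 1 rose and 4 did not pass (739 to 835 CPM against 597 to 762 CPM). Of 6 tested endothelial markers 4 fell, 1 rose and 1 did not pass (51.7 to 62.2 CPM against 53.7 to 70.5 CPM). The part of these cells in the levels of the 7 genes was not tested.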

How the data were processed

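Read counts per gene were deposited by the authors in 2 tables, 1 of 9 differentiation libraries and 1 of 6 libraries with or without IL4. The authors also deposited log2 RPM for the same genes, and lists with a p-value adjusted as FDR. Per the submitters' processing notes, HISAT2 2.0.5 and edgeR were used and the builds GRCm38.p6 and GRCm39.p6 are named; the counting program, its strand setting and its treatment of reads that fit several genes have no statement in the sources used here. Positions are those of the differentiation table, which equal GENCODE M21 (GRCm38) for all 7 genes. The IL4 table gives another start or end for each of them but Ly6e, such as chr15:75156693-75158739 for Ly6g.

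Counts were fitted with edgeR 4.0.16 (R 4.3.3): filterByExpr at a minimum count of 10, TMM, quasi-likelihood tests without covariates, 1 fit per table, with Benjamini-Hochberg adjustment over 13359 and 8936 genes, called under 0.05. The script was tested on simulated data: for immature macrophages against precursors it recovered 26% of changes of 1 and 95% of changes of 2 on the log2 scale (12902 genes), with 5 false calls, and for IL4 64% and 100% (8860 genes), with 23 false calls. A group with 0 reads gives a bound from 3 reads over the group and pooled reads.

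The 7 genes and all lists were chosen with earlier results of these data known. Named genes are the 7, the 3 nearest in pattern to each, the most abundant of a list (at most 2) and a short set of markers; Oas2, Ifit1, Rhoa, Rac1, Hmgb1, Lynx1 and Pgap1 between stages were named after their values were seen. Some genes that the rule names are not reported here. Titles number mice 1 to 3 within groups. Whether equal numbers are the same mouse is not given, and in the IL4 table libraries of equal number carry different M numbers in their labels. Deviations from the group mean of same-numbered libraries correlated by 0.175 to 0.591 in the IL4 table and by -0.129 to 0.165 in the differentiation table. For libraries of different number the range was -0.487 to 0.2475 in the IL4 table and -0.128 to 0.139 in the differentiation table. Nothing else states separate cultures, so p-values measure the spread between these libraries. A planned comparison of protein sequences was not run. Alternatives were RLE, DESeq2 1.42.0, limma 3.58.1 on log2 RPM, other filters, a replicate block, only the libraries compared, and leaving out each library.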

Additional observations from a re-analysis of the deposited data

How the results depend on the processing

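For the 7 genes, 315 fold changes were recomputed under alternatives (RLE, DESeq2, limma on the deposited log2 RPM, no filter, a filter at 1 CPM, the replicate block, only the 6 libraries compared, and leaving out each library). Of these 313 kept direction and side of the threshold, and none reversed. The others were both Ly6e: immature against precursor macrophages without immature library 3 (-1.87, edgeR adjusted p = 0.0521) and mature against immature without mature library 3 (-2.66, edgeR adjusted p = 0.000754). The counts of genes called lower were 7, 3 and 7 in the differentiation comparisons; leaving out 1 library gave 6 to 7, 3 to 4 and 7 to 7. With IL4 the count of 1 became 2 without the filter, with the filter at 1 CPM and with DESeq2, and was 1 to 2 on leaving out 1 library, since Ly6a then entered the test. With the replicate block no call of the 7 genes changed, and Ly6e with IL4 was at -1.75 (edgeR adjusted p = 4.94e-05); over all genes the block moved calls lower with IL4 from 918 to 1436. Limma on the log2 RPM moved the median of all genes from -0.07 to 0.10 between precursors and immature macrophages and from -0.05 to 0.08 between precursors and mature ones, and all 7 genes were called lower in both. The mean Ly6c1 share in precursors was 0.537% to 0.654% on leaving out 1 library. With lengths over all exons, Ly6e ranked 1 and Ly6c2 ranked 2 in precursors. Depth limits Ly6c1, Ly6i and Ly6a: 3 reads equal 0.121 to 0.383 CPM in a differentiation library and 0.704 to 1.24 CPM in a library of the IL4 table.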
